A study of Mus musculus with 2 samples.

Results

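The genes for the proteins of the small (40S) ribosomal subunit were followed through mouse bone marrow as 31 of the genes counted in each library. The members are all genes whose symbol is Rps with a number, or Rpsa, leaving out kinases, pseudogenes and Rps27a, and each had UMIs in both libraries. Total bone marrow cells, flushed from the femur with PBS, were profiled with the Chromium 3′ v3 kit from 1 WT mouse and 1 DKO mouse. The DKO mouse carried VavCre with floxed Ddx41 alleles (VavCre:Ddx41 fl/fl) and lacked cGAS (cGAS-/-). VavCre deletes in blood-forming cells, while the cGAS null allele is in the germline. The study describes the mice as 2 months old and the WT animal as a littermate control. By its methods such controls were Ddx41 fl/fl without VavCre, with cGas alleles of the wild type, while the sample label says WT only. As each genotype is a single mouse, how much mice vary is unknown, no difference was tested, and every interval given here is a 95% interval that covers counting error only.

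Targeted genes came first. Ddx41 had 2406 UMIs in the cells kept from WT (20.2 CPM, counts scaled to the total UMIs of the cells) and 919 in those from DKO (8.003 CPM). Cgas had 1615 UMIs in WT (13.6 CPM) and 832 in DKO (7.25 CPM). Both were lower in DKO without being at 0, and a tag at the 3′ end may lie outside the deleted part, so these values check the labels only in part. The kept cells held 118927032 UMIs in 18685 WT cells and 114830668 UMIs in 13729 DKO cells, with medians of 4870 and 6904 UMIs per cell. The 2 libraries shared 75 barcodes among kept cells, 0.401% of the WT cells and 0.546% of the DKO cells.

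A small subunit holds one copy of each of its proteins together with the 18S rRNA, and it scans the mRNA and reads its codons during translation. The mRNAs of these proteins start with a terminal oligopyrimidine (TOP) tract and are translated together under the control of mTOR. Loss of one copy of single members causes Diamond-Blackfan anemia or takes part in the anemia of del(5q) marrow failure, in both of which red cell precursors are the most affected cells, and reticulocytes lose their ribosomes as they mature.

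Erythroid-like cells were placed into 5 stages by the share of their UMIs that came from hemoglobin genes. The 40S share of all UMIs was 10.4% in WT and 10.0% in DKO below a hemoglobin share of 15%, and 4.81% and 5.15% at 15 to 40%. It was 0.974% and 0.934% at 40 to 75%. Beyond these stages it was 0.288% in WT and 0.173% in DKO at 75 to 90%, and 0.195% and 0.0991% at 90% or more. From the first to the last stage the share was thus 53.5-fold lower in WT and 101-fold lower in DKO. Hemoglobin itself takes up most of a late cell's UMIs, and within the other UMIs the 40S share was 4.68-fold lower in WT and 7.77-fold lower in DKO. The UMIs of 40S genes per UMI of large subunit (60S) genes went from 0.800 to 0.660 in WT and from 0.810 to 0.572 in DKO.

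**Figure D1:**
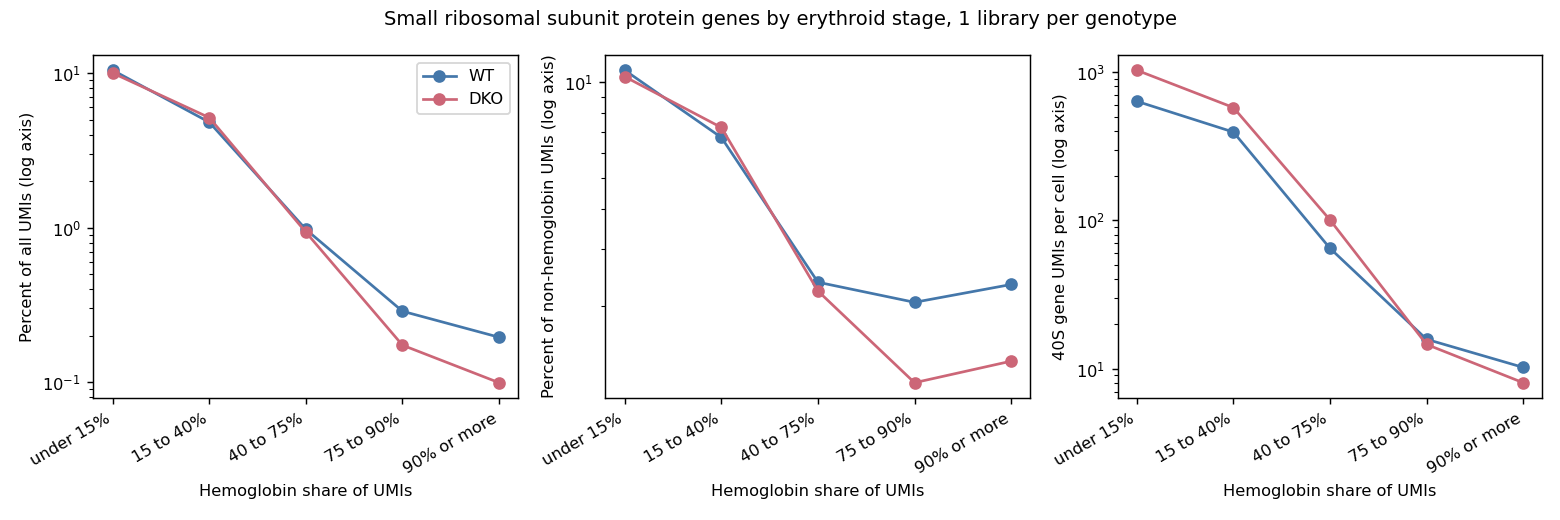
UMIs of the 31 small subunit protein genes by erythroid stage (hemoglobin share of UMIs, x axis) in the WT and DKO libraries, as percent of all UMIs, percent of UMIs outside hemoglobin genes, and UMIs per cell, on log axes. Each point is 1 library; the shares lie close together up to 75% and apart at 75 to 90% (0.288% and 0.173%) and at 90% or more (0.195% and 0.0991%).

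The libraries differed in the late stages. The summed log2 ratio of DKO over WT was -0.73 at 75 to 90% (interval -0.75 to -0.71) and -0.98 at 90% or more (-1.01 to -0.95). It was -0.06, 0.10 and -0.06 in the 3 earlier stages, in their order. At 75 to 90%, 24 of the 30 members that reached 20 CPM in a library were at least 1.5-fold lower in DKO, against 16.9% of all genes that reached it. At 90% or more, 29 of 30 were, against 33.2% of all genes. The member that did not reach 20 CPM in either stage was Rps27l, a paralog of Rps27. The median over members was -0.81 and -1.12 in these stages, beside 0.36 and -0.26 over all genes. The contrast with all genes at 90% or more rests on the minimum of 20 CPM. Genes that reached it in WT only, such as Rps4x there (36.0 and 13.9 CPM), had their direction set by the minimum. With no minimum other than 1 UMI in each library, 25 of 31 members were lower at 75 to 90%, against 34.5% of all genes, and 30 of 31 at 90% or more, against 74.9%. The medians were then -0.81 over members and -0.25 over all genes at 75 to 90%, and -1.13 and -1.15 at 90% or more. In the last stage a gene with 1 UMI in each library counts as lower, because the DKO sum is larger. In the 3 earlier stages 0 of 31 members were at least 1.5-fold lower, against 2.76%, 3.75% and 6.28% of all genes.

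How large the late difference was depended on what the counts were set against. Scaled to UMIs outside hemoglobin genes, the summed log2 ratio was -0.84 at 75 to 90% and -0.80 at 90% or more. In single cells of the 75 to 90% stage, the median 40S share of these UMIs was 1.83% in WT (quartiles 1.28% and 2.58%) and 0.936% in DKO (0.622% and 1.49%). At 90% or more the cell medians were 2.23% and 1.18%. Per cell, without scaling, 40S genes had 15.8 UMIs in WT and 14.6 in DKO at 75 to 90%, and 10.2 and 8.04 at 90% or more, which are log2 ratios of -0.12 and -0.34. All UMIs per cell were 5486 in WT and 8401 in DKO at 75 to 90%, and 5226 and 8112 at 90% or more. So the DKO cells held more UMIs in all, and nearly as many or fewer from 40S genes. In the first stage the per-cell values were 635 in WT and 1028 in DKO, a log2 ratio of 0.70 that went with a ratio of 0.76 for all UMIs per cell. These are means over cells of very different size. All UMIs per cell had means of 6078 and 10270 there, but medians of 1334 in WT and 1582 in DKO.

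RNA of most other cell types was also lower in DKO in the late cells. The 7 neutrophil genes summed to 934 CPM in WT and 415 CPM in DKO at 75 to 90%, with 7 of 7 at least 1.5-fold lower. The platelet genes (62.1 and 14.7 CPM) and the monocyte and macrophage genes (85.9 and 36.5 CPM) were lower there too, but the lymphoid genes were nearly level (122 and 112 CPM). At 90% or more the neutrophil genes summed to 773 and 319 CPM, with 6 of the 6 that reached 20 CPM lower. S100a9, their most abundant gene, was at 324 CPM in WT and 130 CPM in DKO at 90% or more. At that stage the 5 platelet genes summed to 60.8 and 11.5 CPM (Pf4, the most abundant, 26.0 and 6.21 CPM). The 7 monocyte and macrophage genes summed to 71.9 and 27.8 CPM (Lyz2 46.2 and 17.7 CPM). The 7 lymphoid genes summed to 95.9 and 66.2 CPM (Igkc 74.0 and 54.3 CPM). 1 lymphoid gene was at 0 in each library there, and none of the other 3 lists had a gene at 0. In the first stage, where the 40S ratio was -0.06, the neutrophil genes also differed, at 2863 CPM in WT and 1095 CPM in DKO.

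Free RNA was measured in the 1125245 WT barcodes with 1 to 100 UMIs, where 40S genes made up 3.91% of UMIs (3.89% to 3.93%) and S100a9 alone 12727.5 CPM. If all neutrophil RNA in a late cell were free RNA of this makeup, free RNA would account for 6.51 of the 15.8 40S UMIs per WT cell and 4.43 of the 14.6 per DKO cell at 75 to 90% (41.3% and 30.4%). At 90% or more it would account for 50.4% of them in WT and 40.9% in DKO. In the first stage, where the neutrophil genes also differed, it would account for only 3.48% in WT and 1.39% in DKO. Set by Malat1, a nuclear RNA chosen after its values were seen, the shares at 90% or more would be 39.3% in WT and 20.1% in DKO. With the free RNA set by the neutrophil genes taken away, 9.26 and 10.1 40S UMIs per cell were left at 75 to 90% in WT and DKO, and 5.06 and 4.75 at 90% or more, so that per cell DKO was higher than WT at 75 to 90%. As a share of the UMIs left, the summed log2 ratio was -0.51 and -0.74. Of members with 20 CPM left in a library, 10 of 21 and 9 of 16 were at least 1.5-fold lower, against 7.48% and 16.8% of all genes. Some of them had 20 CPM left in WT only, such as Rps16 (36.9 and 11.9 CPM) and Rps7 (38.1 and 16.5 CPM) at 90% or more. The minimum set the direction of such members. With no minimum the counts were 16 of 31 and 21 of 30 members, against 15.1% and 58.5% of all genes. At 90% or more the median was then -0.83 over members and -0.87 over all genes. The subtraction and its count with no minimum were chosen after seeing the data, and the subtraction uses the WT profile for both libraries, since empty droplets of DKO were not analysed here.

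The stages did not hold the same mix of cells. At 75 to 90% there were 3668 WT and 1420 DKO cells, and at 90% or more 1407 and 2622. Slc4a1, which codes for the anion exchanger band 3, was at 509 CPM in WT and 967 CPM in DKO at 75 to 90%, and Tfrc, the transferrin receptor, at 45.5 and 125 CPM. Malat1 was at 529 CPM in WT and 1346 CPM in DKO there, but at 101 and 26.3 CPM at 90% or more. Taken as 1 stage of 75% or more, which was also chosen after seeing the data, the cells gave a 40S share of 0.263% in WT and 0.126% in DKO, a log2 ratio of -1.06. With the same mix of hemoglobin share this ratio was -0.81. It was -0.76 scaled to UMIs outside hemoglobin genes and -0.46 as UMIs per cell. Cluster by cluster, the 6 late erythroid-like clusters had summed log2 ratios of -1.20 to -0.80, and the 3 early ones -0.23 to 0.14. The medians over all genes that reached 20 CPM were -0.74 to -0.20 in the late clusters and -0.04 to 0.33 in the early ones. Each late cluster had a higher hemoglobin share in DKO, as in that of -1.20 (89.9% in WT and 92.9% in DKO). The late cluster led by Isg15, an interferon-induced gene, held 2164 WT and 855 DKO cells and had a ratio of -1.17. Its median over all genes was -0.52. At 40 to 75% the cells from early clusters were at 1.26% and 1.18% (log2 ratio -0.09), and those from late clusters at 0.582% and 0.418% (-0.48). Below 15% the cells from late clusters (190 of 1053 WT and 88 of 726 DKO cells) were at 3.52% and 1.56% (-1.17). Those from early clusters were at 10.7% and 10.2% (-0.07). In single cells of this stage, the 40S share of UMIs outside hemoglobin genes had medians of 9.64% in WT and 9.61% in DKO. Its lower quartiles were 1.13% and 0.594%, so the first stage held cells of very different 40S share. The part of cell mix, free RNA and depth in the late ratio was not tested beyond these values.

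The late ratios differed among the members. Rps16 and Rps4x had some of the lowest ratios at 90% or more. Rps16 was at 77.0 CPM in WT and 28.7 CPM in DKO (log2 ratio -1.42, interval -1.59 to -1.26). Rps4x, the X-linked copy of Rps4, was at 36.0 and 13.9 CPM (-1.37, -1.62 to -1.13). At 75 to 90% Rps28 was among the lowest, at 40.4 and 17.9 CPM (-1.17, -1.40 to -0.95). The intervals of these genes, which are the ends of a ranking, did not reach the summed ratio of their stage.

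Rps29, which codes for a short zinc-binding protein, had the highest ratio at 90% or more. It was at 177 CPM in WT and 143 CPM in DKO at 75 to 90% (-0.30, -0.39 to -0.22) and at 119 and 84.7 CPM at 90% or more (-0.49, -0.60 to -0.37). Rps9 was at 123 and 78.1 CPM at 90% or more (-0.66), and Rps6, the substrate of S6 kinase, at 36.6 and 21.6 CPM (-0.76). At 75 to 90% the highest ratios were those of Rps26 (-0.29), Rps29 (-0.30) and Rps25 (-0.42). Rps9 is also the member richest in neutrophil-like cells, and it took 4.30% of the 40S UMIs of empty droplets.

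**Figure D2:**
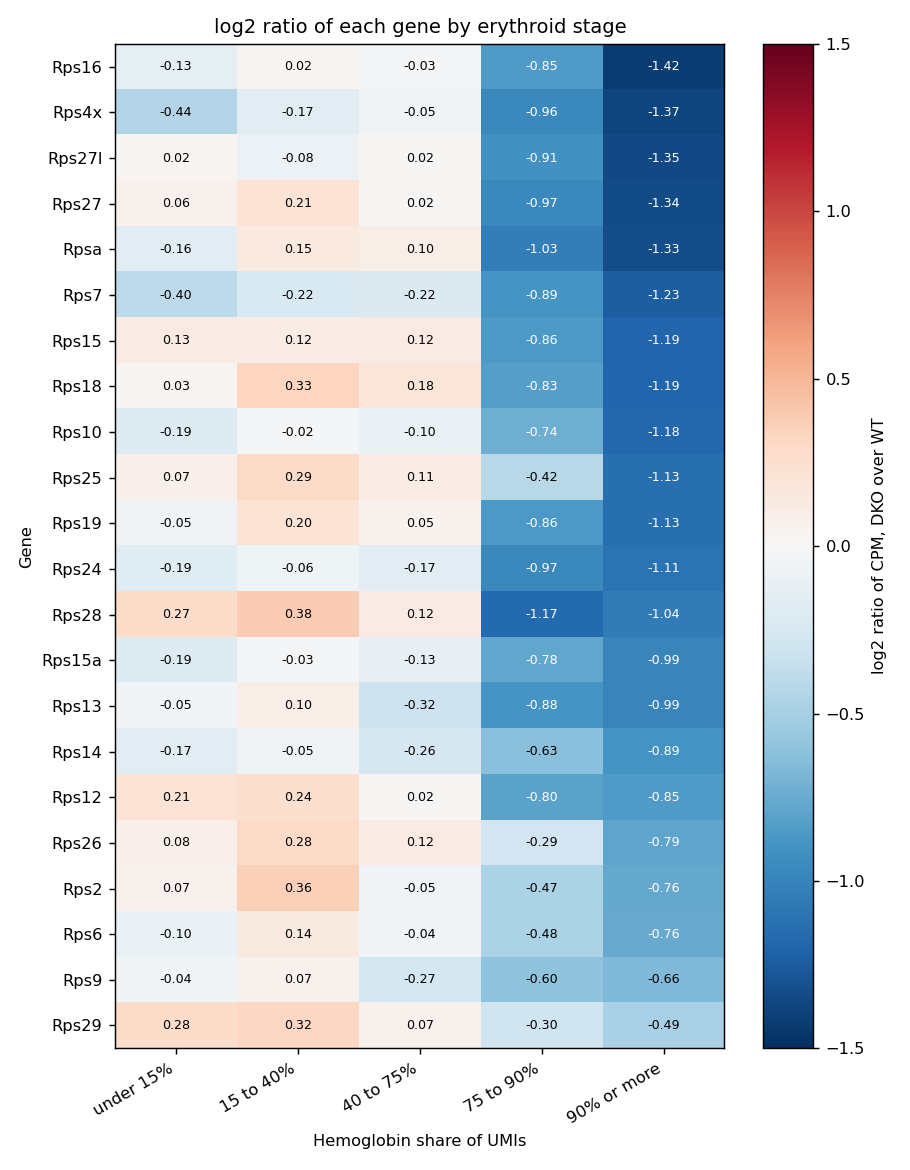
log2 ratio of CPM, DKO over WT, for 22 small subunit protein genes named in the text (rows, ordered by the last stage) in 5 erythroid stages (columns, hemoglobin share of UMIs). Every value shown is below 0 at 75% and above, from -0.29 for Rps26 at 75 to 90% to -1.42 for Rps16 at 90% or more, while the 3 earlier stages hold values of both signs.

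Several members are linked to marrow failure. Rps19, the member most often mutated in Diamond-Blackfan anemia, was at 3443 CPM in WT and 3318 CPM in DKO in the first stage (log2 ratio -0.05), and at 48.6 and 22.2 CPM in the last (-1.13, -1.33 to -0.93). Rps14, the del(5q) gene, was at 4010 and 3561 CPM in the first stage (-0.17) and at 128 and 69.0 CPM in the last (-0.89). Rps7 was lower in DKO from the start, at 3958 and 3008 CPM in the first stage (-0.40, -0.42 to -0.37), and at 70.9 and 30.2 CPM in the last (-1.23). This was not particular to erythroid cells, since Rps7 lay below the summed ratio in 10 of 10 non-erythroid classes (median distance -0.22). Rps24 was at 146 and 67.6 CPM in the last stage (-1.11), and Rps10 at 88.8 and 39.3 CPM (-1.18). Rps26 was at 49.5 and 28.6 CPM (-0.79). This list is not complete, since Rps27, Rps28 and Rps29 are also linked to the disease, so no count is drawn from it.

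In the earlier stages the ratios were small. Rps4x and Rps7 were the lowest members in both the first and the second stage. Rps4x was at 3925 CPM in WT and 2889 CPM in DKO in the first (-0.44). The highest in the first stage were Rps29 at 2233 and 2703 CPM (0.28), Rps28 at 1397 and 1691 CPM (0.27) and Rps12 at 5284 and 6102 CPM (0.21). In the second stage Rps28 (0.38), Rps2 (0.36) and Rps18 (0.33) were highest. At 40 to 75% Rps13 (-0.32) and Rps9 (-0.27) lay near the low end of the range and Rps18 (0.18) and Rps15 (0.12) near the high end.

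Rps24, Rpsa, Rps16 and Rps12 were among the most abundant members in WT cells as a whole. Rpsa, the laminin receptor homolog of the subunit, was at 5364 CPM in WT and 4813 CPM in DKO in the first stage and at 62.3 and 24.7 CPM in the last (-1.33). Rps12 went from 5284 and 6102 CPM to 152 and 84.2 CPM (-0.85). Rps12 and Rps24 were thus the most abundant members of WT cells in the last stage, while Rpsa was not among them.

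Subunit proteins with other symbols had ratios within the range of the members. At 90% or more Rps27a, a ubiquitin fusion, was at 57.7 CPM in WT and 30.04 CPM in DKO (-0.94), Fau at 51.4 and 26.9 CPM (-0.93) and Rack1, a signalling scaffold on the subunit, at 33.0 and 16.1 CPM (-1.04). All 3 were at least 1.5-fold lower at 75 to 90% as well (-0.69, -0.74 and -0.94). Of the 60S genes that reached 20 CPM, 30 of 45 were at least 1.5-fold lower at 75 to 90% (median -0.67) and 36 of 42 at 90% or more (median -0.94), against 16.9% and 33.2% of all genes. This contrast also used the minimum of 20 CPM. With no minimum, 34.5% and 74.9% of all genes were lower in these stages, with medians of -0.25 and -1.15. Of 16 other TOP mRNAs, 6 of the 9 that reached 20 CPM were lower at 75 to 90% and 1 was higher, where 41.8% of all genes were higher. At 90% or more 4 of 7 were lower and 1 was higher, where 12.9% of all genes were higher. The higher one in the last stage was Pabpc1, the cytoplasmic poly(A)-binding protein, at 607 CPM in WT and 1275 CPM in DKO (1.07). It was named after its values were seen.

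Genes that build the subunit, other than Riok3, were under 20 CPM in both libraries at 75 to 90% and at 90% or more. Of 37 assembly factors, 34 reached 20 CPM in the first stage, where 0 were at least 1.5-fold lower and 3 were higher (median 0.22), against 2.76% lower and 3.56% higher over all genes (median 0.11). At 90% or more only Riok3 reached 20 CPM, at 109 CPM in WT and 151 CPM in DKO (0.47). Tsr2, which escorts the Rps26 protein, had 98 UMIs in WT and 83 in DKO in the first stage (15.3 and 11.1 CPM, log2 ratio -0.46, -0.90 to -0.02) and 2 and 3 UMIs in the last. Pdcd2, which escorts the Rps2 protein, had 172 and 181 UMIs in the first stage (26.9 and 24.3 CPM, -0.15, -0.46 to 0.16) and 3 and 2 in the last. A difference in these escorts was not detectable at this depth in late cells.

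The makeup of the 40S set changed along the stages in both libraries. Rps29 went from 2.14% of 40S UMIs in the first stage to 6.08% in the last in WT, and from 2.70% to 8.55% in DKO. Rps9 went from 3.11% to 6.33% in WT and from 3.15% to 7.88% in DKO. Rps24 also took a larger share, from 3.85% to 7.46% and from 3.53% to 6.82%, as did Rps14 (3.84% to 6.56% and 3.56% to 6.96%). Rps18 went the other way, from 3.82% to 1.46% in WT and from 4.06% to 1.27% in DKO, and Rps4x from 3.76% to 1.85% and from 2.89% to 1.40%. The change had the same sign in both libraries for 28 of 31 members. In empty droplets Rps29 took 2.85% and Rps24 5.74% of the 40S UMIs, both below their shares in the last stage of either library.

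**Figure D3:**
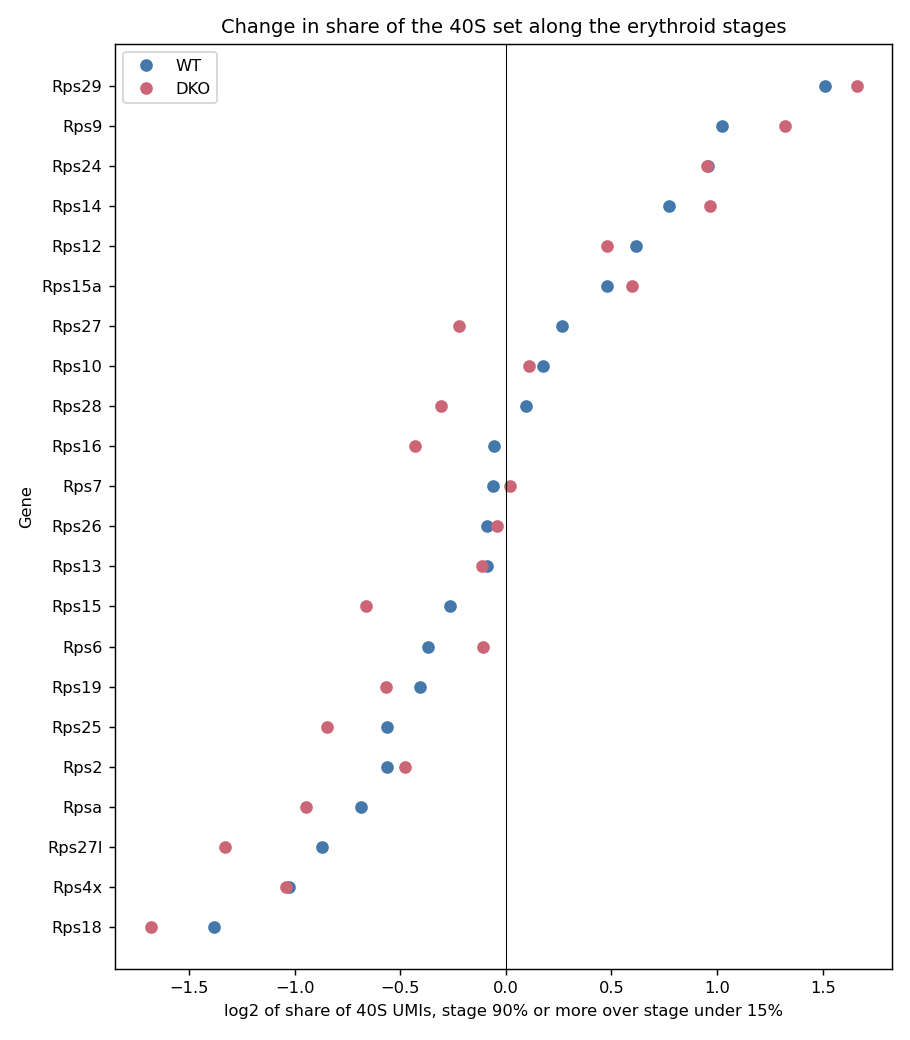
log2 ratio of the share of the 40S UMIs for 22 genes named in the text, stage of 90% or more over stage under 15%, in the WT and DKO libraries (1 point per gene and library). Rps29 (1.51 in WT, 1.66 in DKO) and Rps9 (1.02, 1.32) have the highest values, and Rps18 (-1.38, -1.68) the lowest.

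Outside the erythroid lineage the level followed the class. The 40S share of UMIs was highest in T or NK cell-like cells, at 11.3% in WT and 9.49% in DKO, and in cKit+ progenitor-like cells, at 10.1% and 10.5%. B cell-like cells held 8.51% and 7.65%, dendritic-like cells 8.32% and 7.64%, basophil or mast-like cells 7.54% and 7.86%, and monocyte-like cells 6.93% and 7.28%. Macrophage-like (3.37% and 3.64%), megakaryocyte-like (2.91% and 2.47%) and stromal-like cells (2.13% and 2.43%) lay lower. Neutrophil-like cells were lowest of these, at 1.76% and 1.58%. Plasma cell-like cells held 4.16% and 3.47% but were only 42 in WT and were not compared.

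**Figure D4:**
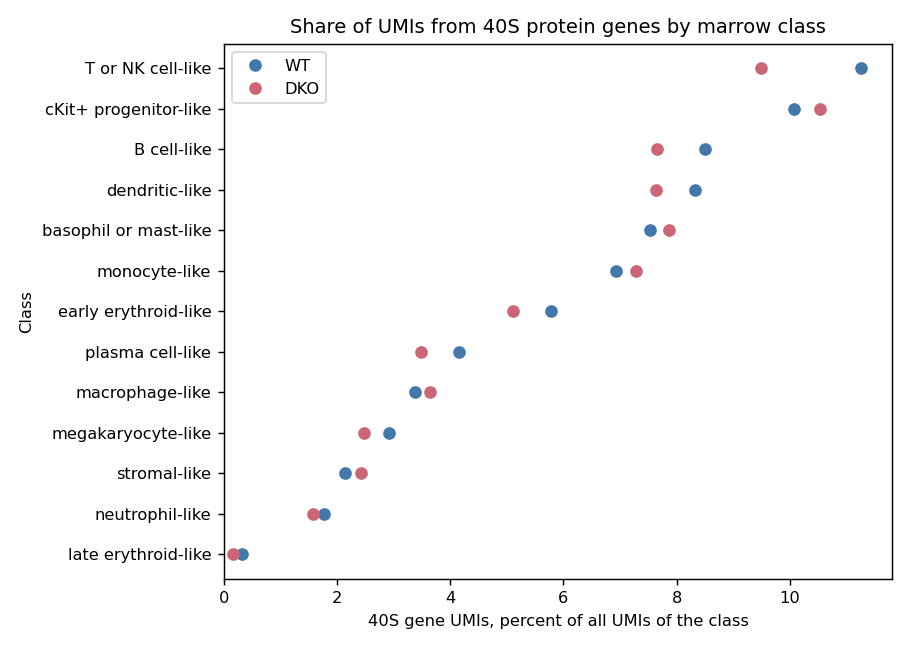
UMIs of the 31 small subunit protein genes as percent of all UMIs in each marrow class, in the WT and DKO libraries (1 point per library, axis from 0). Values run from 0.323% in WT and 0.163% in DKO, both in late erythroid-like cells, to 11.3% in WT T or NK cell-like cells and 10.5% in DKO cKit+ progenitor-like cells.

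As shares of UMIs, these classes differed less between genotypes than the late erythroid stages, which does not hold as UMIs per cell (0.66 in basophil or mast-like, 0.54 in dendritic-like and 0.53 in megakaryocyte-like cells, against -0.12 and -0.34 in the late stages). The summed log2 ratio was below 0 in 5 of 10 classes and above 0 in 5, from -0.25 in T or NK cell-like cells (-0.25 to -0.24) to 0.19 in stromal-like cells (0.15 to 0.22). This tally depended on the scaling. Scaled to UMIs outside hemoglobin genes, the ratio was also below 0 in macrophage-like (-0.017) and stromal-like cells (-0.034). As UMIs per cell it was below 0 only in neutrophil-like cells (-0.047). One member, Rps2, was at least 1.5-fold lower in neutrophil-like cells, at 491 CPM in WT and 327 CPM in DKO (-0.59, -0.63 to -0.54), against 2.17% of all genes. It lies at the limit. Scaled to UMIs outside hemoglobin genes or as UMIs per cell, 0 members were lower there, against 2.13% and 1.19% of all genes. Above the order-of-magnitude threshold or with all WT barcodes of at least 500 UMIs it was also 0, against 1.41% and 2.09%. With doublets kept 2 members were lower, against 2.58%. Rps2 was also the single member at least 1.5-fold higher in stromal-like cells, at 638 and 1052 CPM (0.72, 0.53 to 0.91), where 29.4% of all genes were higher and hemoglobin made up 23.4% of WT and 10.8% of DKO UMIs. Scaled to UMIs outside hemoglobin genes, 0 members were higher in stromal-like cells, against 1286 of 7474 genes. Under some other settings 2 members were higher, with medians over all genes of 0.28 to 0.36. As UMIs per cell 8 of 31 were, where the median was 0.46 over members and 0.59 over all genes. Scaled to UMIs outside hemoglobin genes, megakaryocyte-like cells had a summed log2 ratio of -0.41 and 6 members lower of 31, against 15.9% of all genes. Over all cells the 40S share was 4.78% in WT and 3.70% in DKO (-0.37), a value that mixes classes of different size.

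Some members lay on the same side of the summed ratio in every class, a count made after the values were seen. Rps12, Rps25, Rps28 and Rps29 lay above the summed ratio in 10 of 10 non-erythroid classes, and Rps7, Rps15a and Rps16 lay below it in 10 of 10. The median distance was 0.37 for Rps29, 0.33 for Rps28 and -0.22 for Rps7. The classes share 2 libraries, so they do not count as separate evidence. Makeup differed among classes as well. Rps9 took 8.45% of 40S UMIs in WT neutrophil-like cells and 8.21% in DKO ones, but 3.35% and 3.13% in cKit+ progenitor-like cells. Rps24 was at 6.91% and 6.98% in T or NK cell-like cells, and Rps27, a zinc finger protein, at 2.60% in WT B cell-like cells against 0.954% in WT progenitor-like cells. The class with the highest share was the same in both libraries for 20 of 31 members.

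The members lie on 12 chromosomes, 9 of them on chromosome 7, by GENCODE M21. Reads from close copies limit a few values. Of 50-base words in the last 500 bases of the main transcript, 80.3% of those of Rps18 also occur in the counted genes Gm11361 and Gm10260, and 98.6% of those of Rps27 in Rps27rt. These copies had 2.92, 1.72 and 16.1 CPM in WT, beside 1449 CPM for Rps18 and 714 CPM for Rps27, so the counts of Rps18 and Rps27 are uncertain by an unknown number of reads that were dropped or shared. For 26 of 31 members under 1% of these words occur in another counted gene.

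A pyrimidine run of at least 5 bases that starts with C after a purine and lies within 10 bases of the RefSeq start (sense strand only, as a TOP tract would) was found in 10 of the 24 members with a promoter sequence (41.7%), against 23.0% of all 27025 promoters. Members without an entry included Rps14, Rps20 and Rps29. A match is a description only, and annotated starts can lie away from the cap. The runs differ in length from 5 to 13 bases. As examples from members of different late ratios, the start regions of Rps10 (chr17:27635233-27635262, minus strand), Rps18 (chr17:33955653-33955682, minus strand), Rps6 (chr4:86857354-86857383, minus strand) and Rps27 (chr3:90213636-90213665, minus strand) follow from RefSeq on GRCm38.p6, 5′ to 3′, with the run in capitals.
Rps10: gctgcgccgcgcacgCCCCTTCCTTTCCag
Rps18: tatacgtcacttccgCTCTCTCTTCCacag
Rps6: taagcggaagtcgggCCTCTTTTTCgtgac
Rps27: ggatttccgctttcgCTCCTTTCCggcggt
The log2 ratios of these genes at 90% or more were -1.18, -1.19, -0.76 and -1.34 in the same order, and their runs were 13, 11, 10 and 9 bases long. The order of run lengths was not the order of ratios in these 4 genes.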

How the data were processed

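Bone marrow of 1 WT and 1 DKO mouse was measured as 1 library each. The authors deposited raw UMI counts per gene and barcode, made with Cell Ranger (version 7.1.0 per the file headers; genome build mm10 per the submitters' processing notes). The WT matrix holds all barcodes and the DKO matrix called cells only, with at least 500 UMIs. WT cells were called here in 2 ways. Barcodes passed directly above 4869 UMIs, the 99th percentile among the 3000 largest divided by 10. From 500 UMIs on, the others passed if a Monte Carlo test (10000 draws, FDR 0.01) set them apart from the profile of barcodes holding up to 100 UMIs. Cells over 20% mitochondrial UMIs (174 WT, 215 DKO) and Scrublet doublets at each library's own threshold (379 WT, 198 DKO) were left out. Clustering used 2000 variable genes without the 40S genes, Ddx41 and Cgas, 30 principal components, 15 neighbors and Leiden resolution 1.0. Clusters were named from 13 marker lists, and 1 of 30 stayed unnamed. Comparisons were limited to classes that reached 50 cells in each library, which left out plasma cell-like cells.

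Counts were summed per class or stage and scaled to CPM. The log2 ratio of DKO over WT had 1 count added and the exact conditional binomial interval; shares have Clopper-Pearson intervals. Gene counts use genes with at least 20 CPM in either library. The calculation was tested on simulated data. Named genes were the 5 most abundant members in WT, the 3 lowest and 3 highest ratios per stage among members with at least 100 UMIs, the members known for Diamond-Blackfan anemia or del(5q), Fau, Rack1, Rps27a, Tsr2, Pdcd2, any member under 20 CPM in both libraries over all cells (there was none) and the most abundant gene of each other-cell list. Values of some members named by this rule are not reported here; sums and counts include all members. The members and lists were chosen with earlier results of these data known. Of the alternatives, 14 were planned and 5 were added after seeing the data. Of the feature identifiers, 32158 occur in GENCODE M21, members included. Cells were clustered with scanpy 1.11.5 on igraph 0.11.9 and anndata 0.12.19, neighbors came through scikit-learn 1.9.0, and sums and intervals were made with scipy 1.17.1, numpy 2.4.6 and pandas 2.3.3 in Python 3.11.15.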

Additional observations from a re-analysis of the deposited data

Results flagged for a closer look

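The summed 40S log2 ratio of DKO over WT had opposite signs in different stages and classes, with 1 library per genotype. It was 0.10 in erythroid cells with a hemoglobin share of 15 to 40% and -0.98 in those of 90% or more. Among non-erythroid classes it was above 0 in cKit+ progenitor-like (0.063), monocyte-like (0.070), macrophage-like (0.11), basophil or mast-like (0.060) and stromal-like cells (0.19), and below 0 in the 5 others compared. The signs of macrophage-like, basophil or mast-like and stromal-like cells turned under other settings, given below. As UMIs per cell the ratio was below 0 only in neutrophil-like cells (-0.047). The difference between stages or classes was not tested.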

How the results depend on the processing

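In the stages of 75 to 90% and 90% or more, the summed log2 ratio was below 0 under every alternative listed here, but the 40S UMIs per cell left after subtracting free RNA were higher in DKO at 75 to 90% (9.26 in WT and 10.1 in DKO). Values beyond the counting interval of the chosen analysis follow, and the cause was not tested unless given. Scaled to UMIs outside hemoglobin genes the ratio was -0.067 under 15%, -0.091 at 40 to 75%, -0.84 at 75 to 90% and -0.80 at 90% or more. As UMIs per cell it was 0.70 under 15%, 0.55 at 15 to 40%, 0.64 at 40 to 75%, -0.12 at 75 to 90% and -0.34 at 90% or more, which turned the sign under 15% and at 40 to 75%, and 1 and 9 of 30 members were at least 1.5-fold lower in the last 2 stages, against 3.97% and 12.9% of all genes. With the same mix of hemoglobin share it was -0.067 under 15%, 0.049 at 15 to 40%, -0.10 at 40 to 75% and -0.89 at 90% or more. Above the order-of-magnitude threshold it was -0.087 under 15%, 0.063 at 15 to 40%, -0.13 at 40 to 75% and -0.94 at 90% or more. With all WT barcodes of at least 500 UMIs it was -0.081 under 15% and -0.046 at 40 to 75%. With doublets kept it was -0.012 under 15%, 0.076 at 15 to 40% and -0.079 at 40 to 75%. Under 15% it was -0.066 with a mitochondrial maximum of 10% and -0.086 with 40S genes in the clustering. Stages from all cells gave 0.11 at 15 to 40%, -0.36 with 3 of 31 members lower at 40 to 75% (against 11.1% of all genes), and -0.64 at 75 to 90%. With a minimum of 100 CPM, 9 of 12 and 5 of 6 members were lower at 75 to 90% and 90% or more (against 14.6% and 21.1% of all genes), because fewer were counted. Of the alternatives added after seeing the data, leaving out late clusters with Isg15 among their 10 leading genes gave -0.68 at 75 to 90%. These included a cluster led by Trim10 (411 WT and 320 DKO cells). Subtracting the empty-droplet profile gave -0.12 under 15% and -0.015 at 40 to 75%. At 75 to 90% it gave -0.51 with 10 of 21 members lower (against 7.48% of all genes). At 90% or more it gave -0.74 with 9 of 16 lower (against 16.8%). Fewer members reached the minimum in these 2 stages, and some reached it in WT only, where the minimum set their direction. With no minimum 16 of 31 and 21 of 30 were lower (against 15.1% and 58.5%), beside 25 of 31 and 30 of 31 without the subtraction.

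Outside these stages the sign turned as UMIs per cell in early erythroid-like (0.45), dendritic-like (0.54), B cell-like (0.41), T or NK cell-like (0.10) and megakaryocyte-like cells (0.53) and over all cells (0.022). Scaled to UMIs outside hemoglobin genes it turned in macrophage-like (-0.017) and stromal-like cells (-0.034). With all WT barcodes of at least 500 UMIs it turned in basophil or mast-like (-0.015) and megakaryocyte-like cells (0.043), and with 40S genes in the clustering in basophil or mast-like cells (-0.033).

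No paired analysis was possible because each genotype has 1 library, so differences between mice cannot be told apart from genotype. The late stages hold few 40S UMIs per cell, free RNA can hold a large part of them, and the stages rest on the hemoglobin share, which free RNA and depth also set.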
